A study of Homo sapiens with 4 samples.

Results

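Hypoxia-inducible factors (HIFs) are transcription factors made of an oxygen-labile alpha subunit, encoded by HIF1A or EPAS1, and a stable beta subunit, encoded by ARNT or ARNT2. In the presence of oxygen, prolyl hydroxylases of the EGLN family mark the alpha subunit for the VHL ubiquitin ligase, and the asparaginyl hydroxylase HIF1AN blocks its contact with coactivators. When oxygen falls the alpha subunit escapes both, mostly without a change in its own mRNA, and the dimer binds a short DNA word, ACGTG or GCGTG, near genes for glucose use, acid export, mitophagy, collagen maturation and vessel growth. Breast tumours often contain hypoxic areas, and many of these targets are read as markers of hypoxia there.

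The genes described here are the 42 members of a fixed list of HIF pathway and hypoxia-induced genes, found by symbol in a deposited table of 63677 genes. Each of the 42 symbols had 1 row in the table, and all 42 passed the filter on low counts that left 16064 genes tested. RNA-seq was performed in MDA-MB-231, an established cell line from a triple-negative breast cancer, after transfection with a control siRNA (siCt, 2 libraries) or with an siRNA pool against AXL (siAxl, 2 libraries). AXL encodes a receptor tyrosine kinase that is abundant in these cells. Both groups received siRNA by lipid transfection, neither the labels nor the methods name a low-oxygen treatment, and the methods list the line with a luciferase reporter. The comparison asks which transcripts differ once AXL is depleted. It rests on 1 cell line and 1 siRNA pool, and nothing states that the libraries came from separate cultures, so p-values measure only the spread between these libraries, which may be technical.

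The unit is the normalized count, the reads of a gene divided by the size factor of its library, and the libraries held 39574387 to 44585773 reads. AXL itself had normalized counts of 29189 and 30617 in siCt and 8658 and 7141 in siAxl. The groups were far apart, and the mean dropped by 73.7% (log2 fold change -1.93, SE 0.0918, limma adjusted p = 0.000585). The mesenchymal markers VIM and CD44 were abundant in every library (at least 86751 and 33968 normalized counts), and so was the keratin KRT18 (10076 to 12117). EGFR, a receptor tyrosine kinase and the remaining marker of this line, had 7355 and 7136 in siCt and 12921 and 15003 in siAxl and was called higher (log2 fold change 0.94, limma adjusted p = 0.00166), and its part in the results on the members was not tested. The receptors ESR1 and PGR, which triple-negative cells lack, did not pass 3.3. ERBB2 (2949 to 3680) and EPCAM (565 to 771) were not absent, and the epithelial cadherin CDH1 was low, with 90.1 and 94.3 in siCt and 36.9 and 22.6 in siAxl. Of 8 markers of endothelial, immune and erythroid cells none passed 16.7 normalized counts in any library, and PECAM1 and HBA1 were at 0. In bulk RNA, fewer cells expressing a gene and less RNA per cell cannot be told apart.

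Most hypoxia-induced members were higher after AXL depletion, while none of the 4 HIF subunits was called higher. HIF1A, EPAS1 and ARNT were not called, and ARNT2 was called lower. At a limma adjusted p under 0.05, 26 of the 42 members were called higher in siAxl, 4 were called lower and 12 were not called. Among all genes tested 10.8% were called higher and 7.91% lower, against 61.9% and 9.52% of the members. The median log2 fold change was 0.346 over the members and -0.0022 over all genes tested, whose 5th and 95th percentiles were -0.468 and 0.594. Each siAxl library set against each siCt library gave a member median between 0.301 and 0.400. Both siAxl libraries lay above both siCt libraries for 31 members and below for 6, where all genes tested gave 30.6% above and 30.5% below, and the groups overlapped for 5 members (ARNT, EGLN2, VEGFA, PDK3 and JMJD6). On the recovered reads, edgeR's quasi-likelihood test and DESeq2 each called 26 members higher and 4 lower. Their shares over all genes were 11.5% higher and 7.92% lower for edgeR, and 12.1% higher and 9.19% lower for DESeq2.

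**Figure D1:**
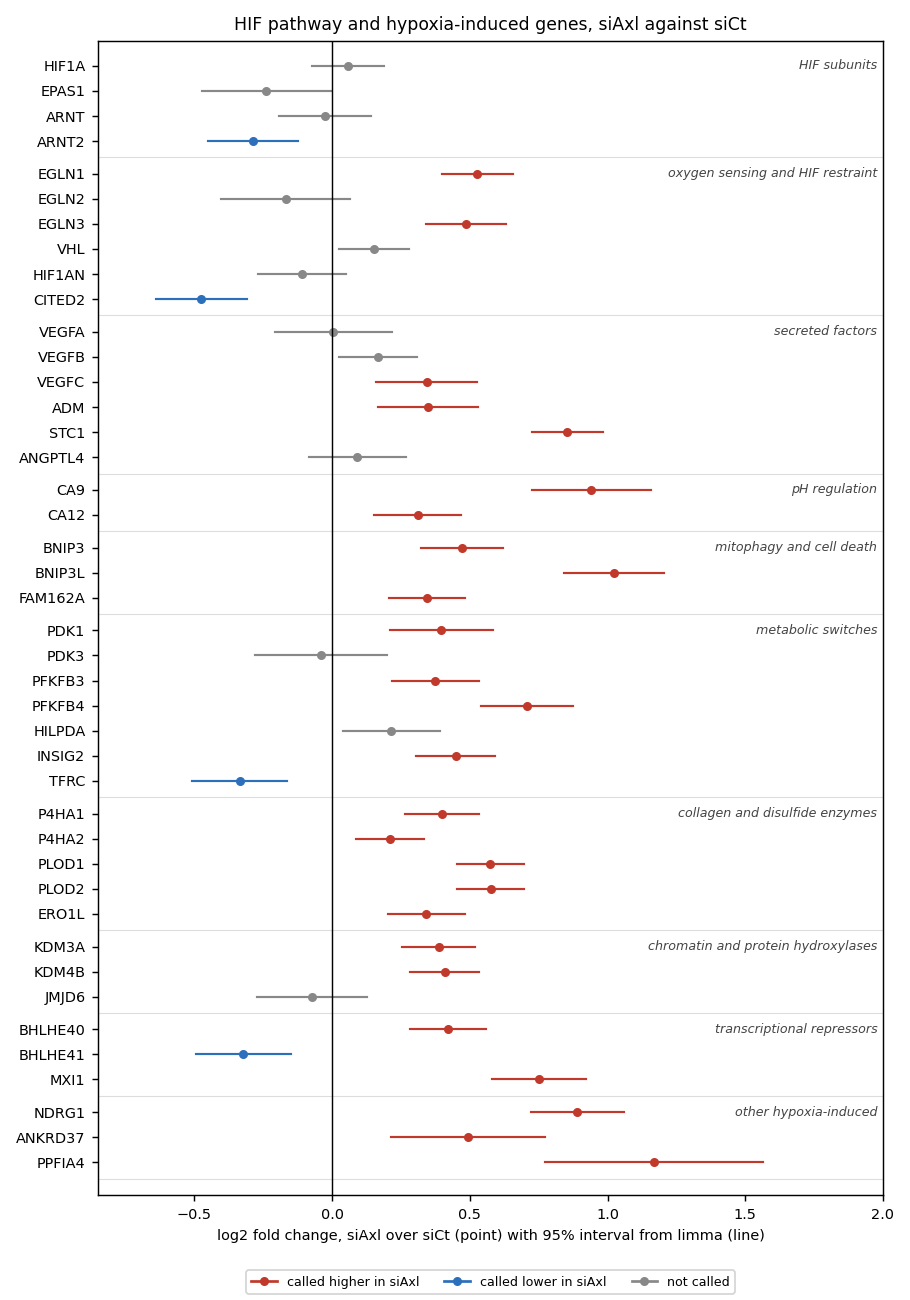
Log2 fold change of each of the 42 members, siAxl over siCt (x axis), grouped by role, with points for the limma estimate and lines for its 95% interval over 2 libraries per group. Red points (26 members called higher) lie between 0.21 and 1.17, blue points (4 called lower) between -0.475 and -0.29, and grey points (12 not called) between -0.24 and 0.215.

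Among the 4 HIF subunits, none was called higher and ARNT2 was called lower. HIF1A was the most abundant of them, with an RPKM of 146 in siCt and 149 in siAxl. RPKM scales reads to library size and to the combined exons of all transcripts of a gene, so comparisons between genes are approximate. HIF1A had 31911 and 32263 normalized counts in siCt and 32966 and 33814 in siAxl. The siAxl libraries were the higher pair by a narrow margin, and the difference did not pass the test (log2 fold change 0.06, 95% interval -0.074 to 0.188, limma adjusted p = 0.522). The upper end of that interval lay below the estimate of every member called higher. The intervals of some of those members reached below 0.188, such as P4HA2 (0.088) and CA12 (0.153), so the ranges overlap. EPAS1, the other alpha subunit, had 3781 and 4695 in siCt and 3511 and 3630 in siAxl. Its siAxl libraries lay below both siCt libraries, but siCt 1 and siCt 2 were further apart than siCt 1 was from either siAxl library, and the gene was not called (-0.24, SE 0.0991, limma adjusted p = 0.139). Its value depended on the control library, at -0.395 without siCt 1, where it was called (limma adjusted p = 0.000309), and -0.083 without siCt 2 (limma adjusted p = 0.600). It was also called once GC content and transcript length were removed (-0.307, limma adjusted p = 0.0447).

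ARNT, the general beta subunit, had 2704 and 3016 in siCt and 2740 and 2869 in siAxl, and the siAxl values fell inside the control range (-0.03, limma adjusted p = 0.832). Its sign turned without siCt 2 (0.052) and without siAxl 1 (0.007). ARNT2, a beta subunit best known from the nervous system, had 1981 and 2181 in siCt and 1697 and 1710 in siAxl. The groups were apart, with a log2 fold change of -0.29 (SE 0.0689, limma adjusted p = 0.0304), and by RPKM ARNT2 stood below ARNT in both groups (6.30 against 10.3 in siCt). The call was lost without siCt 2 (log2 fold change -0.218, limma adjusted p = 0.114), without siAxl 1 (-0.282, limma adjusted p = 0.114) and without siAxl 2 (-0.293, limma adjusted p = 0.0941). Wherever a library is left out, its group has 1 library, which the fit assumes to vary like the other group.

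The 6 members that sense oxygen or restrain HIF were split, with 2 called higher, 1 lower and 3 not called. EGLN1, the main prolyl hydroxylase for HIF1A and itself a HIF target, had 4473 and 4311 in siCt and 6238 and 6423 in siAxl. Each siAxl library was above each control, and the mean was 44.1% higher (log2 fold change 0.53, SE 0.0546, limma adjusted p = 0.00263). EGLN3, the most hypoxia-inducible of the family, had 2476 and 2674 in siCt and 3603 and 3607 in siAxl, again without overlap (0.49, SE 0.0616, limma adjusted p = 0.00413). EGLN2, the prolyl hydroxylase that hypoxia does not induce, had 945 and 836 in siCt and 847 and 739 in siAxl. Those libraries overlapped and EGLN2 was not called (-0.17, limma adjusted p = 0.282), with estimates from -0.267 without siAxl 1 to -0.070 without siAxl 2, and with -0.080 without siCt 1 and -0.257 without siCt 2. The estimates of EGLN1 and EGLN3 held their call with each library left out, between 0.501 and 0.554 for EGLN1 and between 0.431 and 0.542 for EGLN3.

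VHL, the substrate receptor of the ligase that degrades HIF alpha subunits, had 3524 and 3487 in siCt and 3844 and 3943 in siAxl. The groups were apart by 11.1% on the means, which did not pass the test (0.15, SE 0.0540, limma adjusted p = 0.0948). HIF1AN had 4489 and 5013 in siCt and 4332 and 4467 in siAxl, with siAxl 2 and siCt 1 almost level (-0.11, limma adjusted p = 0.310). The estimate was -0.189 without siCt 1 and -0.029 without siCt 2. HIF1AN shares 325 exon bases with NDUFB8 on the opposite strand, and the strand setting of the counting was not stated. Whether reads in those bases were mixed between the genes, dropped or kept apart is therefore not known. CITED2, which competes with HIF alpha subunits for the coactivators CREBBP and EP300, had 4456 and 4714 in siCt and 3479 and 3126 in siAxl. It was the member with the largest fall, and its mean dropped by 28.0% (log2 fold change -0.475, SE 0.0702, limma adjusted p = 0.00672), and stayed called with each library left out (-0.552 to -0.398).

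**Figure D2:**
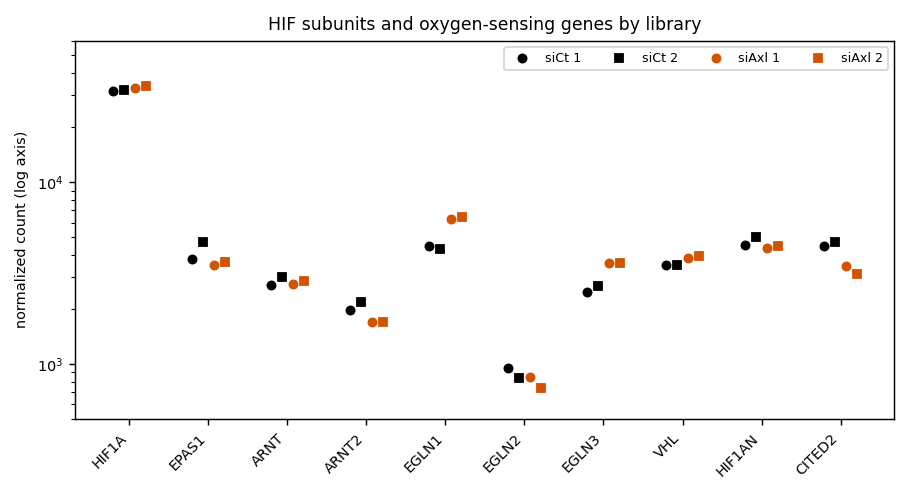
Normalized counts (y axis, log scale) of the 4 HIF subunits and the 6 oxygen-sensing or HIF-restraining members in each library, black for siCt, orange for siAxl, circles for replicate 1 and squares for replicate 2. HIF1A stays between 31911 and 33814 in all 4 libraries, while EGLN1 and EGLN3 are higher and CITED2 lower in both siAxl libraries.

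The 32 members outside those roles comprised 24 called higher, 2 called lower and 6 not called, with a median log2 fold change of 0.392. The split is by listed role, not by measured response to hypoxia. It therefore leaves out EGLN1 and EGLN3, called higher, and CITED2, called lower. PPFIA4, BNIP3L, CA9, NDRG1 and STC1 had the largest estimates, between 0.85 and 1.17. DNA before the gene starts is shown first for members that hold ACGTG there, because this word is the core of the HIF binding site. RefSeq promoter entries (GRCh38.p14) existed for 34 of the 42 members, in 44 promoters, and the 250 bases before each start were searched on both strands for ACGTG and GCGTG. ARNT2, BNIP3L, HILPDA, JMJD6, NDRG1, STC1, VEGFA and VHL had no entry by symbol.

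ACGTG was present in 22 of the 44 member promoters (50%), compared with 22.1% of the 15033 promoters of genes tested and 18.5% of all 35116 promoters. GCGTG was present in 56.8% of member promoters, 42.7% of those of genes tested and 32.2% of all. The palindrome CACGTG, which overlaps ACGTG on both strands and is also the E-box of other factors, was in 20.5% of member promoters, 7.99% of those of genes tested and 6.34% of all. Since many members were listed because they are known HIF targets, the share describes the list. By gene, 15 of 23 members called higher had ACGTG in at least 1 promoter, as had 3 of 3 called lower and 3 of 8 not called, so holding the word did not separate the directions. The windows below belong to the 5 members called higher with the largest change that hold ACGTG and have an entry, and to the 3 called lower. They run up to 60 bases to either side of the ACGTG nearest the start, 5′ to 3′ on the gene's strand and ending at the start where it is nearer. Capitals mark ACGTG or its reverse complement CACGT, and CACGTG where both overlap. They lie in GRCh38.p14, just before the annotated start, at chr1:203026313-203026437 on the + strand for PPFIA4, chr9:35673850-35673927 (+) for CA9, chr10:110210058-110210182 (+) for MXI1, chr3:146161266-146161390 (-) for PLOD2, chr1:231422288-231422360 (-) for EGLN1, chr6:139374736-139374860 (-) for CITED2, chr3:196082114-196082238 (-) for TFRC and chr12:26125038-26125144 (-) for BHLHE41.
PPFIA4: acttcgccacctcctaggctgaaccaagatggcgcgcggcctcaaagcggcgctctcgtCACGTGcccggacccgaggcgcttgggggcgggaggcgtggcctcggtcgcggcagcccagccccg
CA9: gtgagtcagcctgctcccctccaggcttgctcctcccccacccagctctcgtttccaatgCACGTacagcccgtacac
MXI1: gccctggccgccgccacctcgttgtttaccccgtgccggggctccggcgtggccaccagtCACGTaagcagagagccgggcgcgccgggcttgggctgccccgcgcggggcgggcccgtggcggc
PLOD2: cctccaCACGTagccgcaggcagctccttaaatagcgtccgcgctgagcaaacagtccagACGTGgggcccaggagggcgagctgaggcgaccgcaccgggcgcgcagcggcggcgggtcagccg
EGLN1: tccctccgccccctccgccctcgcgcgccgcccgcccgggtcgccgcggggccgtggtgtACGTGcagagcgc
CITED2: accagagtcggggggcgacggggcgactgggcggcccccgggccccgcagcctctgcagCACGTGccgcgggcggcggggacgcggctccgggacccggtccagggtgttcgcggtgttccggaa
TFRC: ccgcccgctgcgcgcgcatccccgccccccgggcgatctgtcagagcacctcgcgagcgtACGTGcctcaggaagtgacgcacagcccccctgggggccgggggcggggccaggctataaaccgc
BHLHE41: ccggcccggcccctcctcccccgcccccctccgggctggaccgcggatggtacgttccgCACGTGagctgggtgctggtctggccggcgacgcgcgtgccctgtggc

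The word began 18 bases before the start in CA9 and 13 bases before it in EGLN1, the nearest of the 8 windows. In PPFIA4 and MXI1 it began 118 and 113 bases before the start, in PLOD2 146, and PLOD2 held a further copy upstream. TFRC, CITED2 and BHLHE41, all called lower, carried it 88, 152 and 47 bases before the start. MXI1 has 3 promoter entries and CITED2 has 3, and in each case only 1 of them held ACGTG. No ACGTG or GCGTG was found in the searched bases of EGLN3 and P4HA2, both called higher, or of ARNT and HIF1AN. These letters are a match in a window and were not tested as binding sites.

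**Figure D3:**
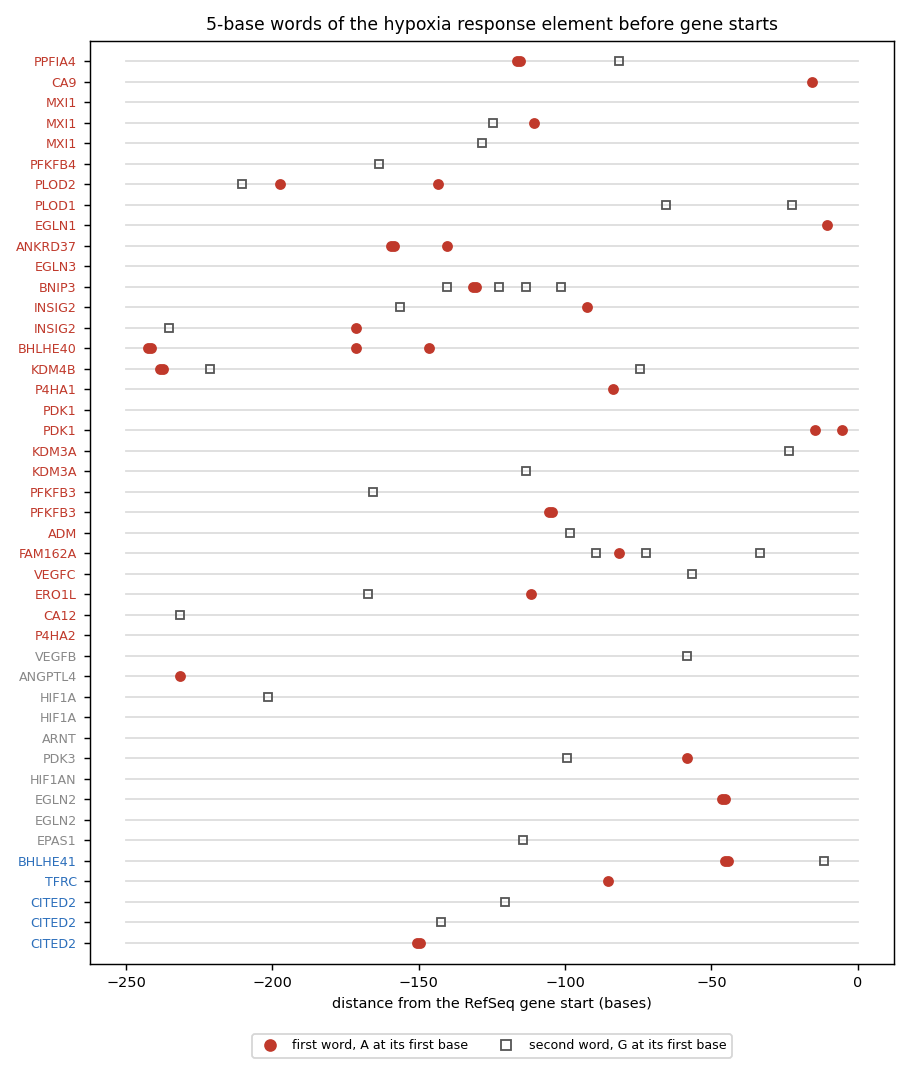
Positions of the words ACGTG (filled circles) and GCGTG (open squares), on either strand, in the 250 bases before the start in 44 RefSeq promoters of 34 members (x axis, bases from the start), 1 line per promoter, ordered by log2 fold change from the highest at the top. Names are red for members called higher, blue for lower and grey for not called, and circles occur beside names of every colour.

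Of the 6 secreted factors, VEGFC, ADM and STC1 were called higher, and VEGFA, the best known HIF target and the main vessel growth factor, was not. VEGFA had 56365 and 49948 normalized counts in siCt and 56943 and 49706 in siAxl. In both groups replicate 1 was the higher one, and the groups covered the same range (log2 fold change 0.004, 95% interval -0.209 to 0.217, limma adjusted p = 0.982). It was among the most abundant members, with an RPKM of 86.4 in siCt and 84.9 in siAxl. The sign is not fixed, being negative without siCt 2 (-0.083), without siAxl 1 (-0.094), with scaling by library size alone (-0.025) and with GC content and transcript length removed (-0.038).

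STC1, which encodes the secreted glycoprotein stanniocalcin, had 8000 and 7605 in siCt and 14147 and 14041 in siAxl. Both siAxl libraries were well above the controls, by 80.7% on the means (log2 fold change 0.85, SE 0.0545, limma adjusted p = 0.00113). VEGFC, a lymphatic vessel growth factor, had 3676 and 3217 in siCt and 4511 and 4225 in siAxl. It did not overlap (0.34, SE 0.0776, limma adjusted p = 0.0252), but the call was lost without siAxl 1 (0.297, limma adjusted p = 0.0986). ADM, the vasodilator peptide adrenomedullin, had 2272 and 2214 in siCt and 3057 and 2665 in siAxl. The difference passed the test with both siAxl libraries (0.35, SE 0.0771, limma adjusted p = 0.0241) and not without siAxl 1 (0.249, limma adjusted p = 0.121). VEGFB, a VEGF family member with little hypoxic induction, had a log2 fold change of 0.17 (limma adjusted p = 0.0985), and ANGPTL4, a lipoprotein lipase inhibitor, one of 0.09 (limma adjusted p = 0.438). Neither was called, and ANGPTL4 ranged from 0.036 without siAxl 2 to 0.148 without siAxl 1, with 0.020 once GC content and transcript length were removed.

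Both carbonic anhydrases, membrane enzymes that set extracellular pH, were called higher. CA9, a clinical marker of tumour hypoxia whose promoter word is printed above, had 309 and 289 in siCt and 570 and 580 in siAxl. The siAxl libraries were 92.1% higher on the means and close to each other (log2 fold change 0.94, SE 0.0914, limma adjusted p = 0.00220). CA9 was low in these cells, at an RPKM of 4.20 in siCt and 7.91 in siAxl. It shares 643 exon bases with ARHGEF39 on the opposite strand, a gene with 59.0% of its reads, so its count is uncertain. CA12 had 943 and 950 in siCt and 1167 and 1180 in siAxl. The replicates lay close to each other and the groups apart (0.31, SE 0.0665, limma adjusted p = 0.0220). Its call was lost without siAxl 1 (limma adjusted p = 0.0953) and without siAxl 2 (0.101), with estimates of 0.318 and 0.302.

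All 3 members tied to mitophagy and cell death were called higher. BNIP3L, a receptor on the outer mitochondrial membrane that recruits the autophagy machinery, had 7825 and 6741 in siCt and 14584 and 14946 in siAxl. The level was 103% higher on the means, the second largest change among the members (log2 fold change 1.02, SE 0.0771, limma adjusted p = 0.00136). Its paralogue BNIP3 had 9299 and 8405 in siCt and 12244 and 12275 in siAxl. BNIP3 did not overlap either (0.47, SE 0.0640, limma adjusted p = 0.00509), and by RPKM the pair stood at 39.0 for BNIP3 and 39.6 for BNIP3L in siCt but at 52.9 and 78.7 in siAxl. FAM162A, a mitochondrial protein linked to hypoxic cell death, had 1619 and 1637 in siCt and 2070 and 2063 in siAxl. It was called with all libraries (0.34, SE 0.0587, limma adjusted p = 0.0106) and not without siAxl 1 (0.342, limma adjusted p = 0.0521).

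Metabolic switches gave 4 genes called higher, 1 lower and 2 not called of 7. PFKFB4 and PFKFB3 make fructose 2,6-bisphosphate, the strongest activator of glycolytic phosphofructokinase. PFKFB4 had 3838 and 3387 in siCt and 5922 and 5866 in siAxl, and PFKFB3 had 5605 and 5034 in siCt and 7034 and 6750 in siAxl. Both were apart from the controls, with log2 fold changes of 0.71 (SE 0.0708, limma adjusted p = 0.00236) for PFKFB4 and 0.375 (SE 0.0676, limma adjusted p = 0.0125) for PFKFB3. PDK1, a kinase that switches off pyruvate dehydrogenase, had 2652 and 2286 in siCt and 3272 and 3215 in siAxl. It passed the test (0.40, SE 0.0791, limma adjusted p = 0.0172) but missed it without siAxl 1 (0.385, limma adjusted p = 0.0512). Its relative PDK3 overlapped between groups (-0.04, limma adjusted p = 0.828) and changed sign without siCt 2 (0.047) and without siAxl 1 (0.051).

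INSIG2, which retains the sterol sensor complex in the endoplasmic reticulum, had 2671 and 2551 in siCt and 3670 and 3459 in siAxl. It was higher in both siAxl libraries (0.45, SE 0.0613, limma adjusted p = 0.00519). HILPDA, a lipid droplet protein, had a log2 fold change of 0.215 and was not called (limma adjusted p = 0.0875), although its libraries did not overlap. TFRC, the transferrin receptor that takes up iron, moved the other way, with 21717 and 24132 in siCt and 17416 and 18878 in siAxl. Its mean dropped by 20.8% in siAxl (log2 fold change -0.34, SE 0.0730, limma adjusted p = 0.0227). TFRC lost its call without siCt 2 (-0.260, limma adjusted p = 0.0571) and without siAxl 1 (-0.278, limma adjusted p = 0.104).

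All 5 enzymes of collagen maturation and disulfide formation were called higher. PLOD2, the lysyl hydroxylase that acts on collagen telopeptides, had 10368 and 10449 in siCt and 15431 and 15608 in siAxl. PLOD1, which hydroxylates lysines in the collagen helix, had 9968 and 10032 in siCt and 14838 and 14955 in siAxl. The replicates of both genes lay close together and the groups far apart, giving log2 fold changes of 0.576 for PLOD2 (SE 0.0514) and 0.575 for PLOD1 (SE 0.0512), both at a limma adjusted p of 0.00184. P4HA1, a catalytic subunit of collagen prolyl 4-hydroxylase, had 6876 and 6510 in siCt and 8658 and 9002 in siAxl. It did not overlap (0.40, SE 0.0570, limma adjusted p = 0.00597). ERO1L, the oxidase that supplies disulfide bonds in the endoplasmic reticulum, had 18021 and 18809 in siCt and 22642 and 24019 in siAxl. ERO1L was called (0.34, SE 0.0594, limma adjusted p = 0.0112) except without siAxl 2 (0.298, limma adjusted p = 0.0592). P4HA2, another catalytic subunit, had 5096 and 5158 in siCt and 5979 and 5889 in siAxl. This was the smallest change among members called higher (0.21, SE 0.0520, limma adjusted p = 0.0328), and the call was lost whichever library was left out while the estimate stayed between 0.200 and 0.222. The limma adjusted p was 0.0840 without siCt 1, 0.0787 without siCt 2, 0.173 without siAxl 1 and 0.123 without siAxl 2.

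Among the chromatin and protein hydroxylases, which use oxygen as the EGLN enzymes do, KDM3A and KDM4B were called higher and JMJD6 was not called. KDM3A, an H3K9 demethylase, had 4771 and 4524 in siCt and 6018 and 6134 in siAxl, and KDM4B, a demethylase of trimethylated H3K9, had 3602 and 3670 in siCt and 4808 and 4844 in siAxl. Neither overlapped between groups. Their log2 fold changes were 0.39 for KDM3A (SE 0.0559, limma adjusted p = 0.00622) and 0.41 for KDM4B (SE 0.0529, limma adjusted p = 0.00441). JMJD6, a lysyl hydroxylase of splicing proteins, overlapped (-0.07, limma adjusted p = 0.595) and turned positive without siAxl 2 (0.016).

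The transcriptional repressors differed in direction. MXI1, which competes with MYC for its partner MAX, had 2075 and 1852 in siCt and 3379 and 3225 in siAxl. It was 68.4% higher on the means, well beyond the spread of either group (log2 fold change 0.75, SE 0.0727, limma adjusted p = 0.00219). BHLHE40, a repressor that also acts in the circadian clock, had 7155 and 6759 in siCt and 9556 and 9059 in siAxl, and it was higher in both siAxl libraries (0.42, SE 0.0590, limma adjusted p = 0.00563). Its paralogue BHLHE41 had 1143 and 1225 in siCt and 968 and 925 in siAxl. BHLHE41 was lower (-0.32, SE 0.0735, limma adjusted p = 0.0261), and the call was lost without siCt 2 (-0.272, limma adjusted p = 0.0732), without siAxl 1 (-0.356, limma adjusted p = 0.0720) and without siAxl 2 (-0.289, limma adjusted p = 0.119).

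The remaining 3 hypoxia-induced members were all called higher. NDRG1, a stress-responsive cytoplasmic protein, had 33941 and 30987 in siCt and 62395 and 57954 in siAxl. By RPKM it went from 77.5 in siCt to 141 in siAxl (log2 fold change 0.89, SE 0.0721, limma adjusted p = 0.00153). PPFIA4, a member of the liprin family of scaffold proteins, had 1312 and 931 in siCt and 2780 and 2222 in siAxl. It had the largest estimate and also the widest spread among the members, since siCt 1 and siCt 2, and siAxl 1 and siAxl 2, were well apart from each other (log2 fold change 1.17, SE 0.168, limma adjusted p = 0.00609). The estimate ran from 0.921 to 1.416 with single libraries left out and stayed called. ANKRD37, an ankyrin repeat protein, had 274 and 287 in siCt and 433 and 361 in siAxl. The groups did not overlap (0.49, SE 0.119, limma adjusted p = 0.0308), but the call was lost without siAxl 1 (0.361, limma adjusted p = 0.174). ANKRD37 shares 909 exon bases with UFSP2 on the opposite strand, a gene with 364.3% of its reads, so its count is uncertain.

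**Figure D4:**
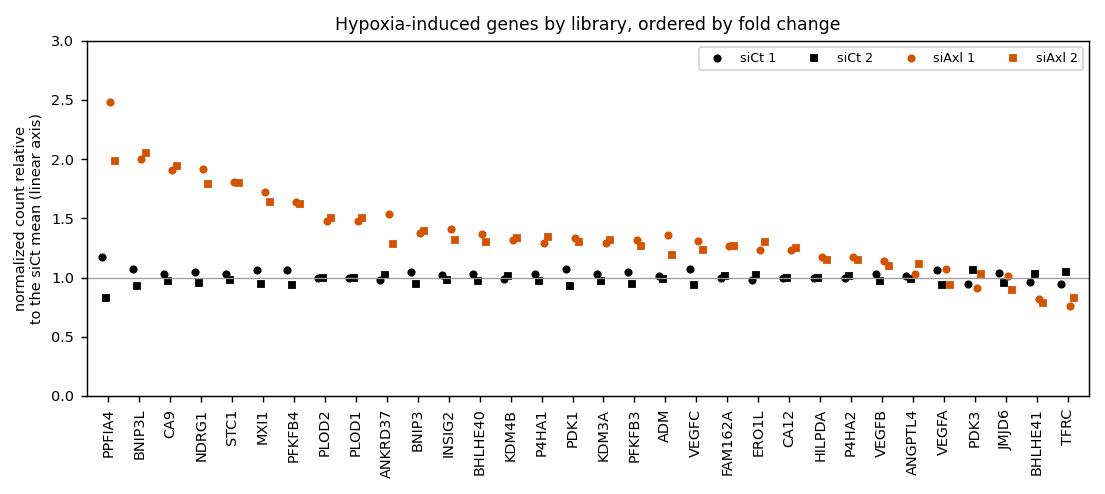
Normalized count of each of the 32 members outside the HIF subunits and the oxygen-sensing or HIF-restraining members, divided by its siCt mean (y axis, linear), in each library. Genes are ordered by log2 fold change. Black marks siCt, orange siAxl, circles replicate 1 and squares replicate 2. PPFIA4 and BNIP3L are at the left with the largest rise, VEGFA, PDK3 and JMJD6 overlap, and BHLHE41 and TFRC at the right are lower in both siAxl libraries.

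A few settings bear on these calls together. When every gene with at least 1 read in any library was tested, 10 members kept their direction but missed the threshold, namely ARNT2, VEGFC, ADM, CA12, PDK1, PFKFB3, TFRC, P4HA2, BHLHE41 and ANKRD37. Scaling by library size alone shifted the median of all genes by -0.0292 and changed the split of all called genes from 57.7% to 46.8% higher, while every called member stayed called in its direction. The 7-base word CACATCA in the 3′ UTR had been singled out by earlier results of these data. Only the transcript with the longest coding sequence was searched in each gene. Genes with the word were 9.71% of the 12830 tested genes with a 3′ UTR. Their median log2 fold change was 0.123, a value not independent of how the word was chosen. The word was carried by 5 members (VHL, HIF1AN, CA12, BNIP3L and BHLHE40), 11.9% of the list, and its part in the calls was not tested. Of the 37 members without it, 23 were called higher and 4 lower, with a median of 0.348. With genes holding the word left out of the test, 1353 genes were called higher and 1176 lower, beside 1735 and 1271 with them. No other word was searched in the 3′ UTRs.

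A further list covered other genes that act on HIF. Of 20 genes for coactivators, the VHL ligase, HIF stability and corepressors, 19 were tested, of which 3 were called higher (15.8%) and 1 lower (5.26%), beside 10.8% and 7.91% of all genes tested, with a median log2 fold change of -0.025. HIF3A was not tested, with at most 3.9 normalized counts. CITED1, a relative of CITED2, had 97.8 and 84.5 in siCt and 196 and 195 in siAxl (1.095, limma adjusted p = 0.00442), although it shares exon bases with PIN4 on the opposite strand, a gene with 748.97% of its reads. CITED4, of the same family, had 33.6 and 29.3 in siCt and 62.2 and 55.0 in siAxl (0.88, limma adjusted p = 0.0308). The direction of these 2 relatives was opposite to that of CITED2, at far lower counts. OS9, a lectin of the endoplasmic reticulum also reported to bind HIF1A and EGLN enzymes, was higher (0.36, limma adjusted p = 0.00727), and CUL2, the scaffold of the VHL ligase, was lower (-0.20, limma adjusted p = 0.0420). EdgeR called 3 of these genes higher and 2 lower, the further one being the chaperone HSP90AB1 (edgeR adjusted p = 0.0432). DESeq2 also gave 3 and 2, but the genes called higher were not the same. It gave no adjusted p for CITED4 and called WSB1 higher (0.435, DESeq2 adjusted p = 0.00988). WSB1, listed under HIF stability, was not called by limma (limma adjusted p = 0.0641).

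A second list held 50 hypoxia-induced genes outside the members, of which 47 were tested. Like the members and the partner genes, it was chosen with earlier results of these data known, so it is no independent check. Limma called 25 higher (53.2%) and none lower, beside 10.8% and 7.91% of all genes tested. The median log2 fold change of the list was 0.239. At an unadjusted p under 0.05 the limma counts were 32 higher and 0 lower, where all genes tested gave 18.1% and 15.9%. EdgeR called 25 and 0, and DESeq2 called 24 and 0. EPO, FLT1 and CXCL12 were too low to test. TMEM45A, a transmembrane protein, had 409 and 359 in siCt and 981 and 1009 in siAxl (1.37, limma adjusted p = 0.00113). RORA, a nuclear receptor of the circadian clock, had 191 and 192 in siCt and 427 and 423 in siAxl (1.15, limma adjusted p = 0.00184). LOX, which cross-links the collagen that the PLOD enzymes modify, had 2904 and 2810 in siCt and 5005 and 4761 in siAxl (0.77, limma adjusted p = 0.00136). In all 3 the siAxl libraries were clearly apart from the controls. LOX shares 138 exon bases with SRFBP1 on the opposite strand, a gene with 24.17% of its reads. Within this list, 8 of 18 genes of glycolysis and glucose uptake were called higher, and the glucose transporter SLC2A1 was level, with 30704 and 30539 in siCt and 30101 and 31022 in siAxl (-0.003, limma adjusted p = 0.978).

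**Figure D5:**
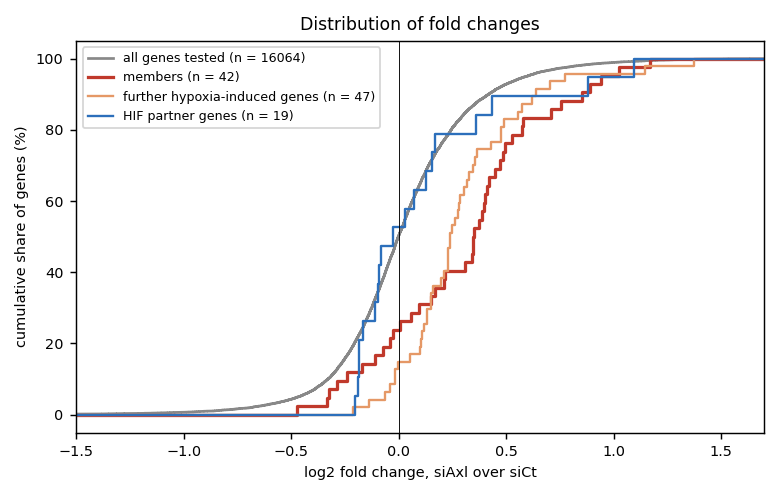
Cumulative share of genes (y axis, percent) against the log2 fold change, siAxl over siCt (x axis), for all 16064 genes tested (grey), the 42 members (red), the 47 further hypoxia-induced genes (orange) and the 19 HIF partner genes (blue). The red and orange curves lie to the right of the grey one over most of the range, with medians of 0.346 and 0.239 against -0.0022, while the blue curve crosses it, with a median of -0.025.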

How the data were processed

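RNA was sequenced by the authors from MDA-MB-231 cells in 2 groups of 2 libraries, grouped here by the treatment given in the labels. Per the submitters' processing notes, the tools were CASAVA 1.8, TopHat2 2.0.10, HTSeq 0.5.3 and DESeq2 1.4.5 with the build GRCh37. The authors deposited 1 table of normalized counts, a signal in which the count of a gene is divided by the size factor of its library. Deposited columns of the authors' own comparison (fold changes and p-values) were not used, and per-sample columns not used numbered 0. The strand setting is not given in the sources used here.

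In each library 100% of values were whole multiples of 1 read (within 0.1), so reads were recovered by division. They summed to 44281982 and 39574387 in siCt and 44585773 and 44559547 in siAxl. Libraries of a group differed by more than sampling noise (chi-square per gene of 21.59 and 19.57). The limit for a gene at 0 was set at 3 reads, which covers counting error only.

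After edgeR's filterByExpr, applied to recovered reads, 16064 genes were tested with limma 3.58.1 in R 4.3.3 on log2(normalized count + 1) with an intensity trend and no covariate. Fold changes are siAxl over siCt on that scale, which understates changes of low genes. Calls use Benjamini-Hochberg adjusted p under 0.05 over all genes tested. With 2 against 2, an exact two-sided permutation test of a single gene cannot go below p = 0.333, so only the fit across genes was used. Tests were tried on simulated data first. Alternatives were pseudocounts of 0.5 and 8, no low-count filter beyond 1 read, TMM and library-size scaling, edgeR 4.0.16, DESeq2 1.42.0 (alternatives on recovered reads), a stricter threshold, single libraries left out, a replicate block, removal of genes with the word CACATCA in the 3′ UTR, and removal of GC content and transcript length.

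RPKM used the recovered reads and the combined exons of all transcripts of a gene in GENCODE release 29. That release also gave overlaps and 3′ UTRs. As its build differs from the authors', no coordinates were taken from it. Promoters came from RefSeq (GRCh38.p14), where ERO1L was matched as ERO1A. The members and lists were chosen with earlier results of these data known. Every member is named, with all libraries for AXL, the HIF subunits, the oxygen sensors and each called member, and of the further lists the 3 called genes with the largest change in each direction. HSP90AB1, WSB1 and SLC2A1 were chosen after their values were seen. The study's drug treatments, cell assays and animal work were not used here.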

Additional observations from a re-analysis of the deposited data

How the results depend on the processing

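AXL and the median of the members kept their direction and size under every alternative, and edgeR, DESeq2, both pseudocounts and TMM scaling left the call of all 42 members as it was. All genes called, 3006 in the main test, numbered 1097 with genes of at least 1 read in any library tested, 859 at an adjusted p under 0.01 and 1301 to 3900 with single libraries left out, fewest without siAxl 1 (1301) and without siAxl 2 (1518). Members called higher (26) numbered 17 at 0.01 and 19 to 25 with single libraries left out, fewest without siAxl 1 (19). Members called lower (4) numbered 1 with the wider filter, 1 at 0.01, and 1 to 5 with single libraries left out, being 1 without siCt 2, 1 without siAxl 1 and 2 without siAxl 2. HIF partner genes called (4) numbered 2 with the wider filter, 2 at 0.01 and 2 to 6 with libraries left out, being 2 without siAxl 1 and 6 without siCt 1. Further hypoxia-induced genes called (25) numbered 12 with the wider filter, 8 at 0.01 and 13 to 25 with libraries left out, being 16 without siCt 2, 13 without siAxl 1 and 13 without siAxl 2. Why these counts moved was not tested. With GC content and transcript length removed 49.0% of all called genes were higher, against 57.7%, and with the wider filter 69.0%. VEGFA turned to -0.025 under library-size scaling and -0.038 with GC content and length removed, and with single libraries left out it ran from -0.094 to 0.102. In the same fits ARNT ran from -0.105 to 0.052, PDK3 from -0.129 to 0.051 and JMJD6 from -0.163 to 0.016. None of these was called.

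The labels number the libraries 1 and 2 in each group without tying the numbers to a shared culture or day, and only 2 such pairs exist. Deviations of the replicates from their group means correlated at 0.271 between the groups over the genes tested. Whether the numbers mark a shared culture or day was not tested. A fit with the replicate number as a block called 7310 of the 16064 genes tested, 3737 higher (51.1% of those called) and 3573 lower. Of the 42 members it called 29 higher and 7 lower. It called 15 of 19 HIF partner genes and 40 of 47 further hypoxia-induced genes. These counts stand beside a far larger share of all genes called than in the main test. It added VHL, VEGFB and HILPDA to the members called higher and EPAS1, EGLN2 and HIF1AN to those called lower. With 2 libraries per group the spread of any single gene is poorly known, and limma shares it over genes.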
